A study of Mus musculus with 8 samples.

Results

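Krüppel-like factors are described here in the ventral prostate of mice that carry the polyoma virus middle T antigen and of wild-type mice. The members are the probe sets annotated to exactly 1 of 10 genes, Klf2, Klf3, Klf4, Klf5, Klf6, Klf7, Klf9, Klf10, Klf13 and Klf15. They number 27 of the 22626 probe sets tested, and the 10 genes are among 12393 genes that had a probe set of their own. The wild-type group holds 4 arrays of ventral prostate from male FVB mice aged 8 weeks. The MT group holds 4 arrays of the same lobe, sex, strain and age from mice transgenic for the polyoma virus middle T antigen, here called MT, which the series describes as giving rise to prostate carcinoma. The promoter that drives the transgene, the founder line and any pooling of animals are not given in the sources used here. No label states that each array stands for a different mouse, so the p-values measure the spread between these arrays, which may be technical. Values are log2 RMA values, differences are MT minus wild type with the standard error of a limma fit, and 1 unit is a 2-fold change.

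Krüppel-like factors are transcription factors that bind GC-rich and CACCC elements of promoters through zinc fingers at the carboxyl terminus, while the rest of the protein differs between members and recruits different partners. Klf2, Klf4, Klf5, Klf6 and Klf7 act largely as activators, Klf3 as a repressor that recruits CtBP, and Klf9, Klf10 and Klf13 can recruit the corepressor Sin3a. In epithelia Klf4 is known for arrest and differentiation and Klf5 for proliferation of progenitor cells, and Klf9 and Klf15 are induced by glucocorticoids in many tissues.

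Genes of prostate epithelium were read on both sides of the comparison, beside genes of other cells of the lobe. The smooth muscle gene Acta2 stood at 12.19 in wild type and 11.20 in MT, and the fibroblast gene Dcn at 11.72 and 10.44. The secretory gene Pbsn stood at 13.28 ± 0.38 (SD, n = 4) in wild type and 9.12 ± 0.68 in MT, and the luminal keratin Krt8 at 11.52 ± 0.08 and 12.53 ± 0.0030. Of 8 genes of the seminal vesicle and other lobes, 7 had group means from 2.97 to 4.88 and did not pass, while Msmb, a secreted protein of the prostate, stood at 13.57 ± 0.28 in wild type and 11.48 ± 0.94 in MT (limma adjusted p = 0.000942). Control probe sets for Bacillus transcripts, which should find no target here, read 2.57 to 3.90, and all 27 Klf probe sets lay above the highest of them on all 8 arrays. A probe set's level depends on its probes, so levels of different genes are not ranked.

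The Klf genes split between rise and fall. Of the 27 probe sets, 15 were higher in MT and 5 were lower, at a threshold of 0.05 on the adjusted p (limma with Benjamini-Hochberg adjustment over all probe sets), together 74.1%, where 37.8% of all probe sets passed. The share of all probe sets was 18.1% higher and 19.7% lower, and among all genes it was 19.3% and 20.7%. Brighter probe sets passed more often, which narrows the contrast. With only the 11313 probe sets above the median level tested, 3118 were higher and 3347 lower. Of the 22 Klf probe sets among them, 13 were higher and 4 lower. By the probe set with the highest mean, Klf3, Klf5, Klf6, Klf7, Klf10 and Klf13 rose and Klf2, Klf4 and Klf15 fell, 9 of 10 genes against 40.0% of all genes. Klf9 did not pass by that probe set. The median difference of the 27 probe sets was 0.36, beside -0.01 over all probe sets. The 4 MT values lay wholly apart from the 4 wild-type values at 18 of the 27, 13 above and 5 below, or 66.7% against 37.5% of all probe sets (18.1% above and 19.4% below). The change reached 2-fold at 5 probe sets, those of Klf15 and 1 of Klf5, 2 of Klf6 and 1 of Klf7, where 4.53% of all probe sets passed with such a change.

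**Figure D1:**
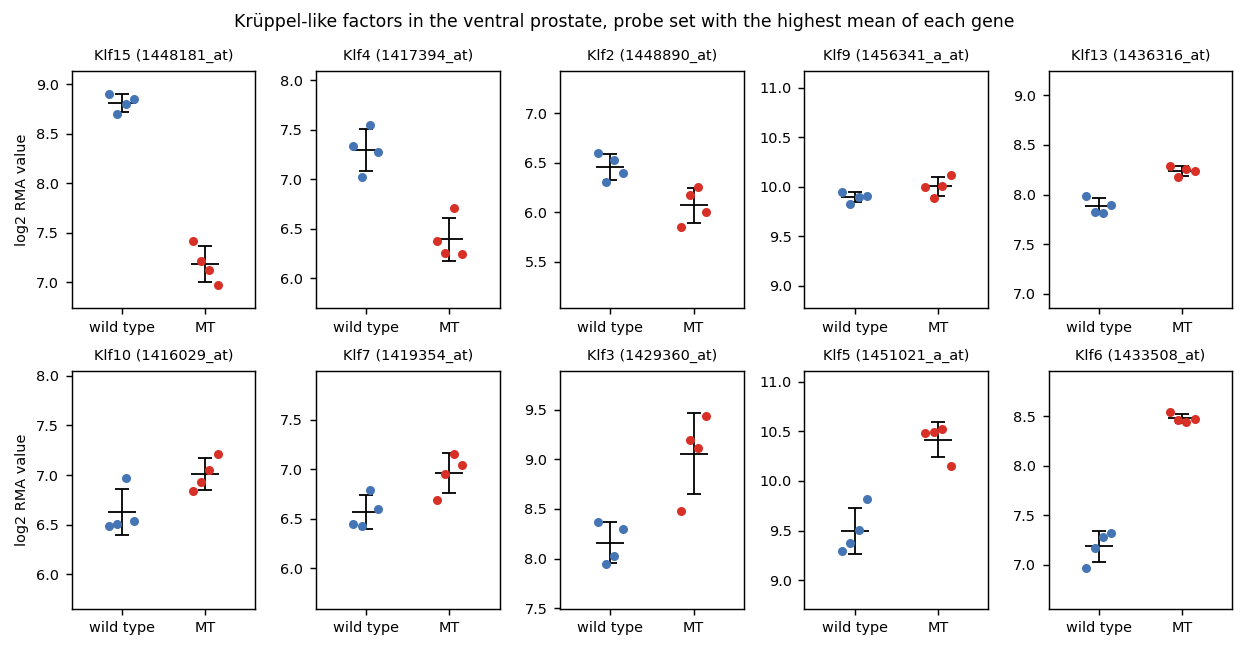
Log2 RMA values of the probe set with the highest mean of each Klf gene, by group, with 1 point per array; black lines are mean ± SD (n = 4), and each panel spans 2.4 log2 units. Klf15 (7.18 against 8.81) and Klf6 (8.48 against 7.19) show the widest gaps between the group means, MT first, while the points of Klf7, Klf9 and Klf10 overlap between the groups.

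The promoters of the genes with the largest falls and of the gene with the largest rise that had an entry are shown to compare the elements that Krüppel-like factors themselves bind. The sequences are the 250 bases before the transcript start from RefSeq, build GRCm38.p6, in which 8 of the 10 genes matched by symbol, all but Klf5 and Klf10. They lie at chr6:90462326-90462575 (plus strand), chr4:55532476-55532725 (minus strand), chr8:72318812-72319061 (plus strand) and chr13:5861239-5861488 (plus strand). Capitals mark the CACCC box, the GC box (GGGCGG) and the E-box (CACGTG), each searched on both strands, so that a box on the other strand reads as its reverse complement.
Klf15: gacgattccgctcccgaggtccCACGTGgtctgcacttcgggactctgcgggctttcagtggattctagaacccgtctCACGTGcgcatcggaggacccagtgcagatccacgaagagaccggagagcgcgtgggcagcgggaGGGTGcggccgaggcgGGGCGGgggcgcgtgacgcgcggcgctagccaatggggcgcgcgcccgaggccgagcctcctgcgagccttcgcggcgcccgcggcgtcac
Klf4: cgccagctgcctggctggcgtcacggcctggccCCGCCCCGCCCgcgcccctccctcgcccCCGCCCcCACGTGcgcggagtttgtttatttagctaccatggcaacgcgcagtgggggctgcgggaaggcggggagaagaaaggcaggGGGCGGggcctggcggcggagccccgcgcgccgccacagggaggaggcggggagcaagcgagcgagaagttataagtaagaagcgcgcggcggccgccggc
Klf2: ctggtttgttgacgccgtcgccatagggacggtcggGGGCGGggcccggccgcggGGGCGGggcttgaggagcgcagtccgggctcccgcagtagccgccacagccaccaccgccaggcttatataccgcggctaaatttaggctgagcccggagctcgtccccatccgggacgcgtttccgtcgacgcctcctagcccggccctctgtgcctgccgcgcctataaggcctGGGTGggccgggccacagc
Klf6: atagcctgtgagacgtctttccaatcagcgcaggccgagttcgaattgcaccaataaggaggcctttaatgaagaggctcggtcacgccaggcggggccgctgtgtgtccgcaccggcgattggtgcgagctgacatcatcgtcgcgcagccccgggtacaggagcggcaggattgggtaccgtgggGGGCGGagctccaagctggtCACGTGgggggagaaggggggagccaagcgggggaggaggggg
GGGCGG, the GC box, was present in 7 of the 8 Klf promoters, where 32.7% of all 32851 promoter windows of the same length held it. Klf4 had 4 matches and Klf2 had 2, while Klf15 and Klf6 had 1 each. CACCC was present in 6 of the 8 against 52.0% of all windows, but not in those of Klf4 and Klf6. CACGTG, the E-box, was found in Klf15, Klf4 and Klf6 against 6.02% of all windows, with 2 matches in Klf15, at 228 to 223 and at 172 to 167 bases before the start. Both falling and rising genes carried it. The CCAAT box occurred 4 times in Klf6, in neither Klf4 nor Klf2, and in 33.8% of all windows. Klf2 held a match to the MEF2 site at 118 to 109 bases before the start, as did 0.508% of all windows; MEF2 factors are known activators of Klf2 in endothelium. Matches of different boxes did not overlap in these 4 windows, but 2 of the GC boxes of Klf4 share a base. GC content ran from 64.8% in Klf6 to 74.0% in Klf4, above the median of 52.4% over all windows, so GC-rich elements are common here by composition.

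Klf15 fell more than any other member. Klf15, a factor that controls amino acid and glucose metabolism in liver and muscle, read 8.90, 8.70, 8.80 and 8.85 on wild-type arrays 1 to 4 and 7.41, 7.21, 7.13 and 6.97 on MT arrays 1 to 4. The lowest wild-type array was more than 1 log2 unit above the highest MT array. The difference was -1.63 ± 0.09, a 3.09-fold lower level in MT (adjusted p = 3.2e-07, limma). Its single probe set leaves no second reading of the gene.

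Most genes linked to Klf15 in metabolism were lower too. Of 8 measured genes of this list, 5 were lower and 0 higher in MT, with a median difference of -0.33, beside 20.7% lower among all genes. Aass, which starts lysine breakdown, fell by 1.32 on the log2 scale and Prodh, which starts proline breakdown, fell by 1.10. Bcat2, the aminotransferase of branched-chain amino acids, fell by 0.53, and Gpt and Slc2a4 fell by 0.38 and 0.28. Acss1, Acss2 and Pck1 did not pass, with differences of -0.00, -0.13 and 0.00, and Pck1 lay at 3.27 in wild type, within the range of the Bacillus controls.

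Adipose markers moved with the groups and also within them. Klf15 is abundant in fat, and 3 of 4 measured adipocyte genes were lower in MT. The mean level of the 4 genes was 5.76, 6.84, 7.37 and 8.24 on wild-type arrays 1 to 4 and ran from 5.24 to 6.33 on MT arrays. The fat hormone gene Adipoq spanned 5.21 to 9.39 over the wild-type arrays, and Klf15 spanned 8.70 to 8.90. The part of fat in the Klf15 difference was not tested.

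Klf4 and Klf2 fell as well. Klf4, at its brighter probe set, read 7.34, 7.03, 7.54 and 7.27 on the wild-type arrays and 6.38, 6.25, 6.71 and 6.25 on the MT arrays. Every MT array was below every wild-type array. The difference was -0.90 ± 0.13, or 1.87-fold lower (adjusted p = 0.000196, limma). The other Klf4 probe set, 1417395_at, gave -0.55 ± 0.08 (adjusted p = 0.00023), again with no overlap.

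Klf2, best known as the flow-responsive factor of endothelium and as a factor of T cell quiescence, changed less. Klf2 read 6.60, 6.30, 6.52 and 6.40 in wild type and 5.86, 6.17, 6.25 and 6.003 in MT. The groups came close without touching, 6.25 against 6.30. The difference was -0.39 ± 0.10, or 1.31-fold lower (adjusted p = 0.00933, limma). Klf4 fell further than Klf2, by 0.51 on the log2 scale (exact permutation p = 0.0286, the smallest that 70 assignments allow; adjusted p = 0.0286 over 5 gene pairs). That call was lost without wild-type array 3, at 0.45 (adjusted p = 0.0571). The value of 0.51 rests on the brighter Klf4 probe set, and with probe sets averaged it was 0.34 (exact permutation, adjusted p = 0.0357).

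Endothelial genes gave a mixed picture beside these falls. Of 10 endothelial markers, 1 was lower and 0 higher in MT, Cldn5 at -0.37 ± 0.07, and their mean level was 5.31 to 5.60 on wild-type and 5.33 to 5.51 on MT arrays. Among 8 endothelial genes that Klf2 and Klf4 are known to act on, 4 were lower and 1 higher, beside 20.7% and 19.3% of all genes. The anticoagulant receptor Thbd (-0.74 ± 0.17) and S1pr1 (-0.21 ± 0.07, limma adjusted p = 0.0481), which Klf2 induces, fell. Edn1, the vasoconstrictor endothelin that Klf2 represses in endothelium, rose by 2.94 ± 0.16. Tissue RNA does not show which cells gave this rise. Cav1, at -1.38 ± 0.18, is also a gene of smooth muscle and fat. Tek gave -0.50 ± 0.12 (limma adjusted p = 0.00601). Nos3, the endothelial nitric oxide synthase, did not pass (-0.11 ± 0.07, adjusted p = 0.293), nor did Vcam1 (-0.02 ± 0.08) and Angpt2 (-0.16 ± 0.08). In tissue RNA, fewer cells of a type and less RNA per cell cannot be told apart.

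Klf5 rose at both of its probe sets. Klf5 at the brighter probe set, 1451021_a_at, read 9.29, 9.37, 9.50 and 9.81 in wild type and 10.49, 10.49, 10.53 and 10.16 in MT. The MT arrays were all higher, MT array 4 least so. The difference was 0.92 ± 0.12, or 1.89-fold (adjusted p = 0.000121, limma). At 1451739_at it was 1.35 ± 0.12, or 2.54-fold, from 6.94 ± 0.24 to 8.28 ± 0.13 (SD, n = 4; limma adjusted p = 5.42e-06).

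Klf4 and Klf5 moved apart. Their changes differed by 1.82 log2 units (exact permutation p = 0.0286, adjusted p = 0.0286 over 5 pairs). Klf4 was lower and Klf5 higher on every MT array, which fixed this smallest possible p in advance, so it adds no evidence. All 5 pairs stood at that value, so the adjustment could not change it. Of 12 measured cell cycle genes linked to these factors, 7 were higher and 2 lower, beside 19.3% and 20.7% of all genes. Their median difference was 0.39. Mki67 and Birc5, genes of dividing cells, rose by 2.43 ± 0.15 and 2.25 ± 0.14. Cdkn1a, the cell cycle inhibitor that Klf4 activates, rose by 0.47 ± 0.16 (adjusted p = 0.0425, limma), and Ccnd1, which Klf5 activates, gave -0.46 ± 0.17 (adjusted p = 0.0527). Luminal epithelial markers were higher for 10 of 10 (mean level 10.49 to 10.67 in wild type, 11.48 to 11.63 in MT), basal markers were higher for 1 and lower for 3 of 7, and fibroblast markers were lower for 9 of 9. The part of cell make-up in the Klf5 rise was not tested.

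Klf6 had the largest rise by the probe set with the highest mean. Klf6, an activator induced by injury and growth factors, read 6.97, 7.17, 7.28 and 7.33 in wild type and 8.54, 8.47, 8.44 and 8.47 in MT at 1433508_at. The MT arrays lay between 8.44 and 8.54, all above the highest wild-type array. The difference was 1.29 ± 0.08, or 2.45-fold (adjusted p = 6.25e-07, limma). The other Klf6 probe sets rose too, by 1.10 ± 0.12 at 1418280_at and 0.75 ± 0.09 at 1427742_a_at.

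Klf7, the closest relative of Klf6 and a factor of neurons and fat precursors, rose at all 4 of its probe sets by unequal amounts. Klf7 at 1419354_at, the brightest, read 6.45, 6.42, 6.79 and 6.60 in wild type and 6.69, 6.95, 7.16 and 7.04 in MT. The groups overlapped, since MT array 1 lay below wild-type array 3. The difference was 0.39 ± 0.11 (adjusted p = 0.0171, limma), and the call was lost without MT array 3 (adjusted p = 0.0549) or MT array 4 (adjusted p = 0.0503). At 1449439_at and 1419356_at the rise was 0.82 ± 0.12 and 1.00 ± 0.17, with no overlap, and at 1419355_at 0.38 ± 0.11. The mean over the 4 probe sets rose by 0.65 (adjusted p = 0.00112). Klf6 rose by 0.90 more than Klf7 at the brightest probe sets (exact permutation p = 0.0286, adjusted p = 0.0286 over 5 pairs). With probe sets averaged it rose by 0.40 more (adjusted p = 0.0857). At the brightest probe sets the gap between the groups in Klf6, 7.33 to 8.44, is wider than the whole span of Klf7, 6.42 to 7.16. That fixed the p of 0.0286 in advance, so it adds no evidence.

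Immediate early genes, to which Klf4, Klf6 and Klf10 are often counted, were higher in the same arrays. Of 15 such genes 9 were higher and 0 lower, with a median of 0.71, and their mean level was 7.08 to 7.26 in wild type against 7.95 to 8.06 in MT. Egr1 rose by 3.26 ± 0.25 and Jun by 1.96 ± 0.14. Klf4 thus fell on the arrays on which most of these genes rose. Genes of tissue stress varied within the groups: the mean of 6 heat shock genes was 9.39 to 10.84 in wild type and 10.47 to 11.36 in MT, lowest on wild-type array 4, where Klf6 was at 7.33, the highest of its group. Their part in the Klf changes was not tested.

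**Figure D2:**
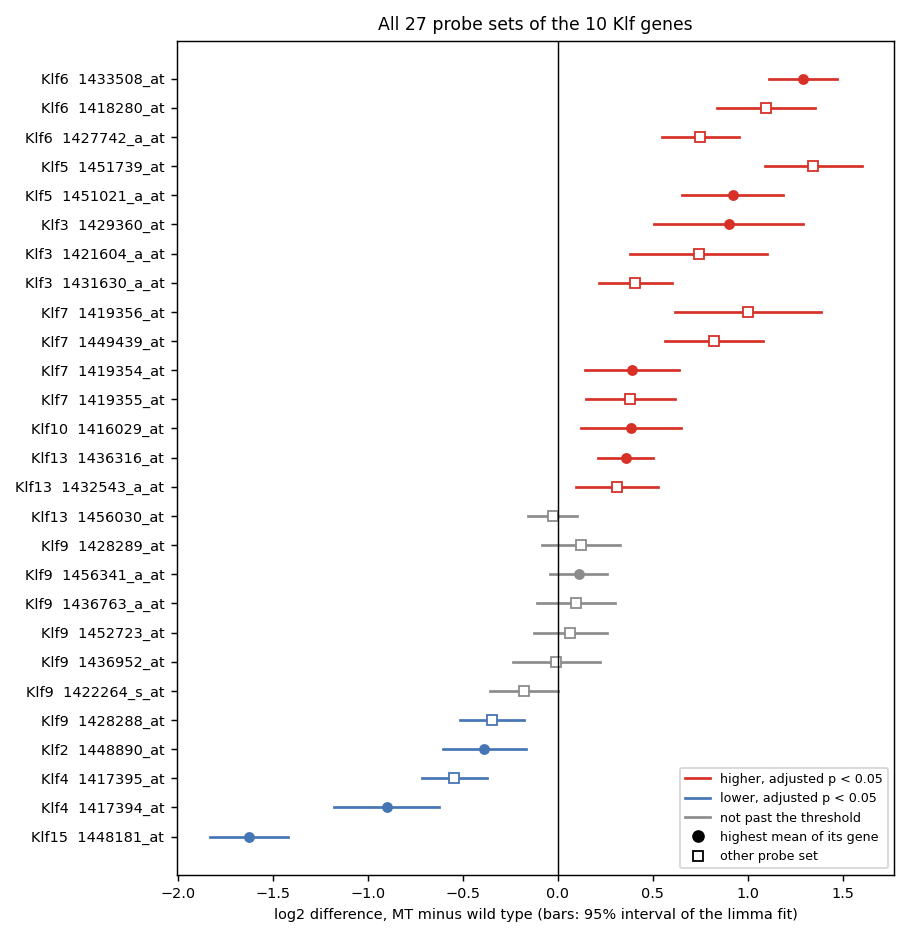
Log2 differences, MT minus wild type, of all 27 probe sets of the 10 Klf genes with the 95% interval of the limma fit, grouped by gene; filled circles mark the probe set with the highest mean of its gene. All intervals of Klf3, Klf5, Klf6, Klf7 and Klf10 lie above 0 and those of Klf2, Klf4 and Klf15 below 0, while 6 of the 7 Klf9 probe sets and 1 of the 3 of Klf13 did not pass the threshold.

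Klf3, the repressor that recruits CtBP, rose at all 3 probe sets. Klf3 at 1429360_at read 8.37, 7.94, 8.02 and 8.30 in wild type and 8.48, 9.19, 9.11 and 9.44 in MT. MT array 1 barely cleared the wild-type arrays, and the other MT arrays were well above. The difference was 0.90 ± 0.18, or 1.86-fold (adjusted p = 0.00208, limma). At 1421604_a_at and 1431630_a_at it was 0.74 ± 0.16 and 0.41 ± 0.09, with MT array 1 again the lowest of its group.

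Among partners of the family calls went both ways, where 19.3% of all genes were higher and 20.7% lower. Of 14 measured corepressors, coactivators and ubiquitin ligases, 2 were higher and 5 lower, with a median of 0.05. Ctbp2, a corepressor that Klf3 recruits, rose by 0.49 ± 0.06, and Ctbp1 did not pass (0.19 ± 0.08, adjusted p = 0.102). Sin3b, of the Sin3 corepressors, fell by 0.57 on the log2 scale, while Sin3a gave 0.01 ± 0.07 (adjusted p = 0.943). Wwp1, a ubiquitin ligase that marks Klf2 and Klf5 for breakdown, fell from 8.59 ± 0.13 to 7.70 ± 0.15 (SD, n = 4; -0.89 ± 0.09, limma adjusted p = 2.09e-05). Fbxw7, another ligase of Klf5, gave -0.30 ± 0.08 (adjusted p = 0.0091).

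Klf10 and Klf13 rose by small amounts. Klf10, which TGF-beta induces, read 6.49, 6.50, 6.97 and 6.53 in wild type and 6.84, 6.93, 7.05 and 7.21 in MT. Wild-type array 3 reached into the MT range. The difference was 0.39 ± 0.12, or 1.31-fold (adjusted p = 0.0247, limma). It did not pass when wild-type array 1, 2 or 4 or MT array 3 or 4 was left out, at adjusted p from 0.0582 to 0.0763, and was 0.50 without wild-type array 3 (adjusted p = 0.00204). Of 13 TGF-beta pathway genes, 3 were higher and 4 lower, beside 19.3% and 20.7% of all genes. The ligand Tgfb1 rose by 0.78 ± 0.09, Tgif1 by 0.66 ± 0.13 and Smad4 by 0.36 ± 0.10. The ligands Tgfb2 and Tgfb3 gave -0.61 ± 0.09 and -0.72 ± 0.11. The co-receptor Tgfbr3 gave -0.76 ± 0.08 and Ccn2 -0.68 ± 0.22 (limma adjusted p = 0.0346).

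Klf13, which activates the chemokine Ccl5 in T cells, read 7.99, 7.82, 7.82 and 7.90 in wild type and 8.28, 8.17, 8.25 and 8.24 in MT at 1436316_at. The groups did not overlap. The difference was 0.36 ± 0.07, or 1.28-fold (adjusted p = 0.00125, limma), and 0.21 for the mean over its 3 probe sets (adjusted p = 0.014). Of the dimmer probe sets, 1432543_a_at gave 0.31 ± 0.10 (adjusted p = 0.0274) and 1456030_at -0.03 ± 0.06 (adjusted p = 0.762). The 1432543_a_at call was lost when wild-type array 2 or 4 or MT array 3 or 4 was left out (adjusted p from 0.0591 to 0.0787).

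Klf9 was read by 7 probe sets, of which 1 passed the test, as lower, and 6 did not. Klf9, a factor induced by glucocorticoid and thyroid hormones, read 9.95, 9.82, 9.90 and 9.91 in wild type and 9.998, 9.89, 10.01 and 10.12 in MT at 1456341_a_at, its brightest. The groups overlapped, with a difference of 0.11 ± 0.07 and a 95% interval from -0.04 to 0.26 (adjusted p = 0.245, limma). At 1428288_at, which is nearly as bright, the values were 9.63, 9.65, 9.84 and 9.67 in wild type and 9.42, 9.21, 9.35 and 9.42 in MT. There the MT arrays were all lower, by 0.35 ± 0.08 on the log2 scale (adjusted p = 0.00385). Its neighbour in number, 1428289_at, gave 0.12 ± 0.09 with overlapping groups. The other 4 ranged from -0.18 to 0.09, and 1422264_s_at passed without MT array 4 (-0.24, adjusted p = 0.0434).

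**Figure D3:**
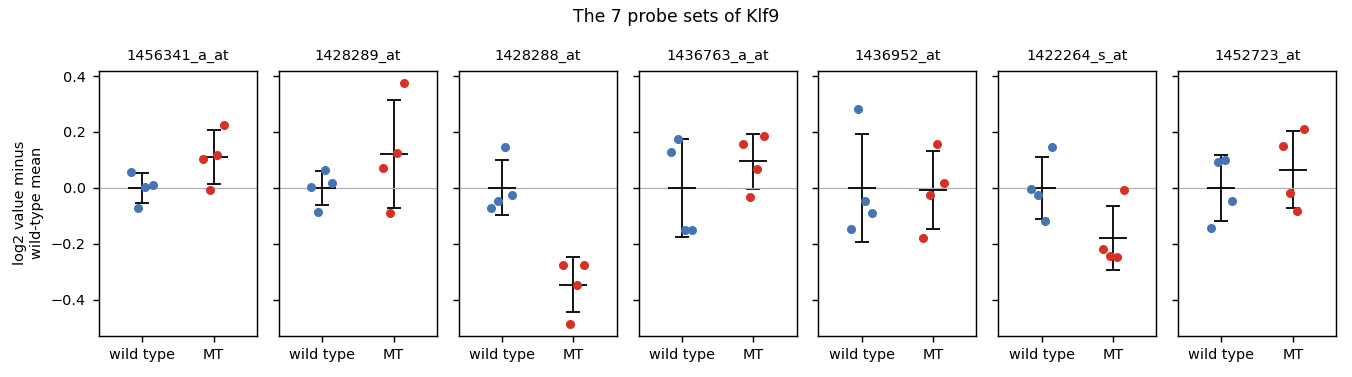
Log2 values of the 7 Klf9 probe sets, each minus its own wild-type mean, with 1 point per array and mean ± SD (n = 4) in black. Only at 1428288_at do the MT points lie wholly below the wild-type points, with a mean difference of -0.35.

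Differences in change between probe sets of a gene were tested by exact permutation of the arrays, for 17 pairs of the brightest and another probe set of the same gene. At 5 of the 17 the p was 0.0286, the smallest possible, namely 1 pair each in Klf6, Klf7 and Klf13 and 2 in Klf9. After adjustment over the 17 pairs the lowest value was 0.0972, so no pair passed. With 5 pairs at the smallest possible p, none could pass this adjustment. The result therefore does not show that probe sets of a gene agree. For 1428288_at of Klf9 the difference from the brightest probe set was -0.46.

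Klf9 and Klf15, both known to respond to glucocorticoids, differed in their change. Their changes lay 1.74 log2 units apart at the brightest probe sets (exact permutation p = 0.0286, adjusted p = 0.0286 over 5 pairs). Klf15 was at 8.70 or more in wild type and 7.41 or less in MT. That gap is wider than the whole span of Klf9, 9.82 to 10.12. It fixed this smallest possible p in advance, so the p adds no evidence. Of 11 steroid-induced or receptor genes, 4 were higher and 4 lower, beside 19.3% and 20.7% of all genes. Fkbp5 and Tsc22d3, induced by glucocorticoids and androgens, fell by 1.32 and 0.97 on the log2 scale, Per1 fell by 0.38 and the glucocorticoid receptor gene Nr3c1 by 0.48. Cebpd and Nfkbia, which inflammation also induces, rose by 1.25 ± 0.18 and 1.04 ± 0.08. Dusp1 and Errfi1 rose by 0.47 ± 0.11 and 0.47 ± 0.10. The change of Klf9, which did not pass, and that of its relative Klf13 differed by -0.25 log2 units, Klf9 minus Klf13 (exact permutation p = 0.0286; adjusted p = 0.0286 over 5 pairs). The adjusted p was 0.0571 when wild-type array 2, 3 or 4 was left out.

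Few relatives outside the 10 genes passed the test. Of 10 other measured KLF and SP factors, 1 was higher and 0 lower, with a median of -0.05. Among all genes 19.3% were higher and 20.7% lower. Sp5, a target of Wnt signalling, rose by 0.63 ± 0.22 (adjusted p = 0.0398, limma). Sp1, the broadly expressed factor that shares the GC box, gave 0.26 ± 0.11 (adjusted p = 0.0781). Klf1, Klf12, Klf16 and Klf17 gave differences from -0.13 to 0.03 and did not pass. Klf12, Klf16, Klf17 and Sp6 were dim, with group means from 4.61 to 4.99. Klf1 and Sp7, with group means from 5.55 to 5.66, also lay below the array medians of 6.21 to 6.23. All 10 members had their brightest probe set above the median level, so the relatives are not a like comparison.

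**Figure D4:**
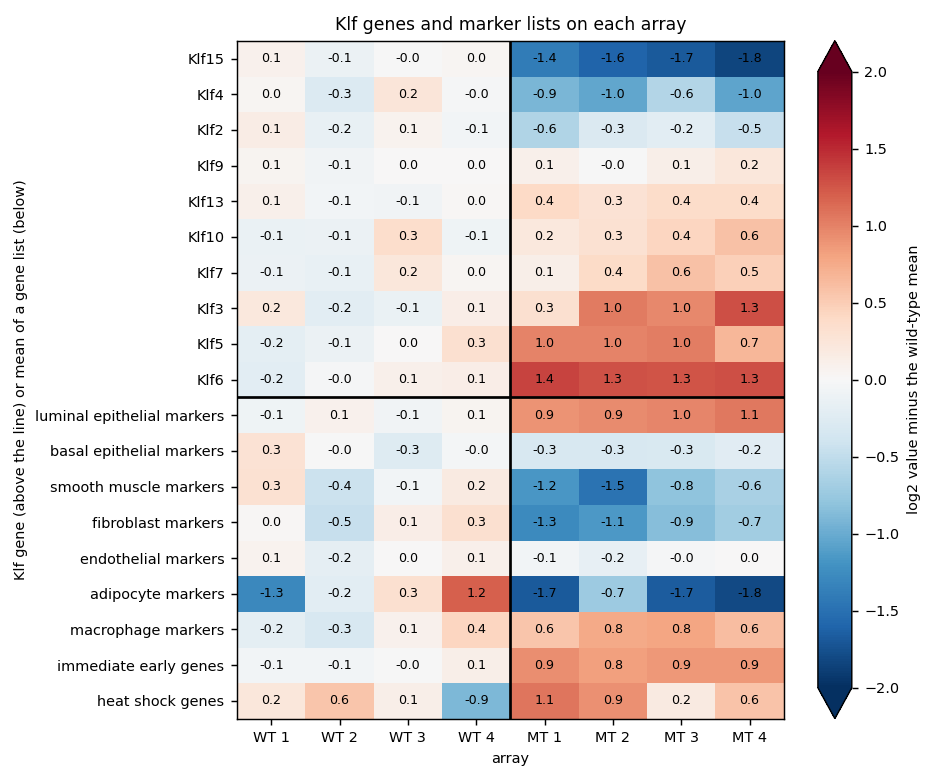
Log2 value of each Klf gene (brightest probe set, upper rows) and mean log2 value of marker lists (lower rows) on each array, minus the mean of the 4 wild-type arrays; the colour scale runs from -2 to 2. Over the wild-type arrays adipocyte markers range from 5.76 to 8.24 and Klf15 from 8.70 to 8.90 before centring, and endothelial markers stay near their wild-type mean on the MT arrays.

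Within both groups some arrays were the lowest or highest at many Klf probe sets. MT array 1 was the lowest of its group at 12 of the 27 probe sets, among them all those of Klf3 and Klf7, and MT array 4 the highest at 14. In wild type, array 2 was the lowest at 12 and array 3 the highest at 11. Probe sets of the same gene are counted separately, and the order over all probe sets was not tested. Without MT array 1 the Klf3 difference was 1.09 at the brightest probe set. Smooth muscle markers, lower in MT for 9 of 9, ran from 8.13 to 8.96 on MT arrays and fibroblast markers from 7.81 to 8.38. On MT array 1 they stood at 8.44 and 7.81. On MT array 4, with the highest Klf3 at the brightest probe set (9.44), they stood at 8.96 and 8.38. MT array 2 had the lowest smooth muscle level, 8.13, with fibroblast markers at 7.925 and Klf3 at 9.19. On MT array 3 smooth muscle markers stood at 8.81, fibroblast markers at 8.22 and Klf3 at 9.11. Macrophage markers, higher for 6 and lower for 1 of 10, averaged 6.90 to 7.65 in wild type against 7.77 to 8.01 in MT. Their part in the Klf differences was not tested.

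The genes most like each member over the 8 arrays are given as a description, since a group difference can weigh heavily in such a correlation. Klf9 did not pass, nor did its matches Rab7b and Edar (limma adjusted p = 0.152 and 0.226). Il5ra and Mtpn, matches of Klf7 and Klf10, did not pass either (limma adjusted p = 0.153 and 0.0508). Klf15 was most like Mettl7a1 (Pearson r = 0.998) and Rcn2 (r = 0.996), and Klf6 most like Rsad2 (r = 0.997) and Tmprss4 (r = 0.997). Klf5 was most like Tgfa (r = 0.989) and Ccrl2 (r = 0.987), Klf4 like Sgsm3 (r = 0.988) and Kif2a (r = 0.986), and Klf13 like Arrdc1 (r = 0.993) and Pclaf (r = 0.989). For Klf3 they were Phxr4 (r = 0.984) and Mdm4 (r = 0.982), for Klf7 Slamf9 (r = 0.984) and Il5ra (r = 0.978), and for Klf10 Mtpn (r = 0.978) and Dleu2 (r = 0.971). Klf2 (Impact, r = 0.971; Krtdap, r = 0.964) and Klf9 (Rab7b, r = 0.964; Edar, r = 0.962) had the loosest matches. All share the same 8 arrays, of which 4 are MT.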

How the data were processed

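Per the submitters' processing notes, the authors made the deposited log2 values with RMA (background correction, quantile normalization, summary per probe set), with no version given in the sources used here. Array medians ran from 6.21 to 6.23. Values were used as deposited, with no filter and no further scaling. Of 22690 probe sets, 64 controls were left out. The platform annotation gave 20380 a single symbol, 691 several and 1555 none, and names come from single-symbol probe sets; 20351 were found in the RefSeq gene table, which changed 0 symbols.

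All 22626 probe sets were fitted with limma (lmFit and eBayes, 8 arrays, only the group as a term). P-values were two-sided and Benjamini-Hochberg adjusted over all of them, with a threshold of 0.05. A gene in a list, or in a count of genes, is represented by its probe set with the highest mean. Differences between 2 members' changes were tested by exact permutation over 70 assignments, two-sided. Fits were tested on simulated data. Versions were R 4.3.3, limma 3.58.1 and Python 3.11.15. For arrays, their number limits the precision.

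The members and gene lists were chosen with earlier results of these data known, so their counts are descriptions. The rule for named genes took every member, per list the 2 most changed genes that passed (or, with none, the brightest), and the 2 genes most correlated with each member. Other genes were named after their values were seen. Alternatives tried were another prior, array weights, other sets of probe sets, a filter, renewed scaling, a stricter threshold, a replicate block and leaving out arrays.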

Additional observations from a re-analysis of the deposited data

Results flagged for a closer look

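Of 54 groups of 4 values (27 probe sets in 2 groups), 4 held an array far from the others, where chance gives about 1 in 20. Klf3 at 1431630_a_at read 7.79 on MT array 1, against 8.06 to 8.08 on the other MT arrays. Klf5 at 1451021_a_at read 10.16 on MT array 4, against 10.49 to 10.53. Klf9 at 1422264_s_at read 6.47 on MT array 4, against 6.23 to 6.25. Klf10 read 6.97 on wild-type array 3, against 6.49 to 6.53 on the other wild-type arrays.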

How the results depend on the processing

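Counts of Klf probe sets and genes past the threshold stayed within 1.5 times of the reported ones under every alternative. With 1 array left out at a time, 12 to 15 Klf probe sets were higher and 5 to 6 lower, and 4 to 6 genes higher and 3 lower; over all probe sets 3551 to 4052 were higher and 3804 to 4325 lower. With wild-type array 4 and MT array 2 both left out, an alternative chosen after seeing the data, 12 were higher and 5 lower (3307 and 3532 over all probe sets); there the calls of Klf7 at 1419354_at, Klf10 and 1432543_a_at of Klf13 were lost (adjusted p from 0.0592 to 0.0818). At an adjusted p under 0.01, 11 were higher and 5 lower, beside 2893 and 3058 of all 22626 probe sets. Among unique-type probe sets 10 of 19 were higher and 5 lower. In 466 comparisons of a probe set with its reported value, 447 kept their side of the threshold, 18 calls were lost and 1 was gained. The Klf9 difference at 1456341_a_at, never past the threshold, was -0.02 for the mean over its probe sets. Over all features, 4089 were higher and 4463 lower; with fewer features tested the counts were 2447 and 2641 (1 probe set per gene), 2403 and 2709 (probe sets averaged) and 2499 and 2903 (unique-type).

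Same-numbered arrays correlated in their deviations from the group means at 0.08 to 0.16, and all 8 arrays correlated best with their own number. The labels state no pairing and the block changed no call of a Klf probe set, so the numbers were not taken as pairs. Whether same-numbered arrays shared a batch was not tested. The fit with the replicate block gave 15 Klf probe sets higher and 5 lower, and 4110 and 4523 over all features. By sign changes of differences between same-numbered arrays, no pair of genes can go below an exact p of 0.125, and all 5 stood there, with the differences -1.82, 0.51, 0.90, -0.25 and 1.74 (Klf4 and Klf5, Klf2 and Klf4, Klf6 and Klf7, Klf9 and Klf13, Klf9 and Klf15). Leaving out 1 array gave -1.93 to -1.74, 0.43 to 0.58, 0.79 to 0.98, -0.29 to -0.23 and 1.63 to 1.82 for these pairs. Klf6 minus Klf7 was 0.40 with probe sets averaged (adjusted p = 0.0857).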
